A study of Mus musculus with 9 samples.

Results

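The Kruppel-like factors examined here are 10 genes of 1 zinc finger family, Klf2, Klf3, Klf4, Klf6, Klf7, Klf9, Klf10, Klf11, Klf12 and Klf13, taken by name from the 24060 genes of the expression table. They were followed in 3 clones of CD8 T cells, called R7-I, R7-III and R7-II. Each clone comes from a line of transnuclear mice, made by transferring the nucleus of 1 CD8 T cell specific for the ROP7 protein of Toxoplasma gondii, so that its T cells carry the receptor of that founder cell from the endogenous loci. All 3 lines were on a Rag2-proficient BALB/c background, and the ages of the mice are not given in the sources used here. Splenocytes of every group were incubated overnight at 37°C with ROP7 peptide (10 µM) and IL-2 (10 ng/ml), and live CD3+ CD8+ cells that bound the H-2Ld-ROP7 tetramer were sorted. There were 3 libraries per clone, called biological replicates in the labels, and whether each came from its own animal is not stated. The receptors bind the same peptide with different strength, R7-I most strongly and R7-II most weakly by the affinities the study cites from purified proteins. Its own measurement with membrane-anchored molecules gave similar affinities for R7-I and R7-III and a lower one for R7-II. Each receptor is represented by 1 mouse line, so an effect of receptor strength cannot be told apart from any other difference between the lines. The unstimulated cells of the study were not analysed here.

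Kruppel-like factors bind GC-rich and CACCC-type sequences through 3 zinc fingers at the end of the protein, while the rest of the protein decides whether a member activates or represses its targets. Klf2 is the member best known in T cells: it is high in naive and memory cells, it maintains quiescence, and it drives the genes by which T cells leave lymphoid organs. Its transcription falls after T cell receptor signalling, and the transcription factor Foxo1 is among its known activators. Klf3 is a repressor that recruits CtBP, Klf10 and Klf11 are repressors induced early by TGF-beta, and Klf13 was first described in T cells as an activator of the chemokine gene Ccl5.

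The sequences before the transcription starts of 5 members are shown first, because 4 of them (Klf2, Klf3, Klf7 and Klf13) were higher in R7-II and the fifth, Klf6, was not. The stretches were taken from RefSeq promoter sequences of GRCm38.p6, the same build as mm10, and lie outside annotated exons of their own strand. Klf2 is shown from chr8:72318913-72319032 (plus strand), Klf3 from chr5:64803271-64803387 (plus strand), Klf7 from chr1:64121492-64121611 (minus strand), Klf13 from chr7:63938916-63939035 (minus strand) and Klf6 from chr13:5861362-5861481 (plus strand), all 5′ to 3′. Capitals mark matches on either strand to the MEF2 motif (CTA and TAG with any 4 bases between them), the CACCC box, the GC box GGGCGG and the FOXO motif GTAAACA, and neighbouring matches can run into each other.
Klf2: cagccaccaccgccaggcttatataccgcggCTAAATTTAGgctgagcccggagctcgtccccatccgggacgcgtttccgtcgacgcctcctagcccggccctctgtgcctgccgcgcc
Klf3: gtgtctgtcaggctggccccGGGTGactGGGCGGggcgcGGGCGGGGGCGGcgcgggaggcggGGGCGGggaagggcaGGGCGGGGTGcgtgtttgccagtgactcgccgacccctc
Klf7: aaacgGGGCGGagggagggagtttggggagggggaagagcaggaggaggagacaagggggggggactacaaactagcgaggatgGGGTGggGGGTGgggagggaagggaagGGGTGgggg
Klf13: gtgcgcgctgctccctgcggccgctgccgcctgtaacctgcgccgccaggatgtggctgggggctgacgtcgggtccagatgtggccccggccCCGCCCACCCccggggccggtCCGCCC
Klf6: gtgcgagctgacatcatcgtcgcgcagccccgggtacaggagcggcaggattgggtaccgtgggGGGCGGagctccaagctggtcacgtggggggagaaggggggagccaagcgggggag

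Promoter sequences were matched for 9 of the 10 members, all but Klf10, and the motifs were counted in the 250 bases before each start. Klf2 alone among these 9 held the MEF2 motif, 118 bases before its start, against 3.20% of the 32851 promoters searched. CACCC was found in 6 of 9 members against 52.0% of all promoters. The GC box was found in 7 of 9 against 32.7%. The GC content of the members' windows ran from 48% (Klf12) to 78.4% (Klf3), and the promoters compared were not matched for it. The FOXO motif was found only in Klf9, 100 bases before its start, against 3.17% of all promoters. Of the other letters searched, CCAAT stood in 4 of 9 members (33.8% of all promoters), TATAAA in 1 (12.4%), the E box CACGTG in 3 (6.02%) and the cyclic AMP element TGACGTCA in none (1.55%). The windows of Klf7 and Klf12 lie inside the annotated gene, which has starts further upstream. These are matches of letters, and no binding was measured.

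**Figure D1:**
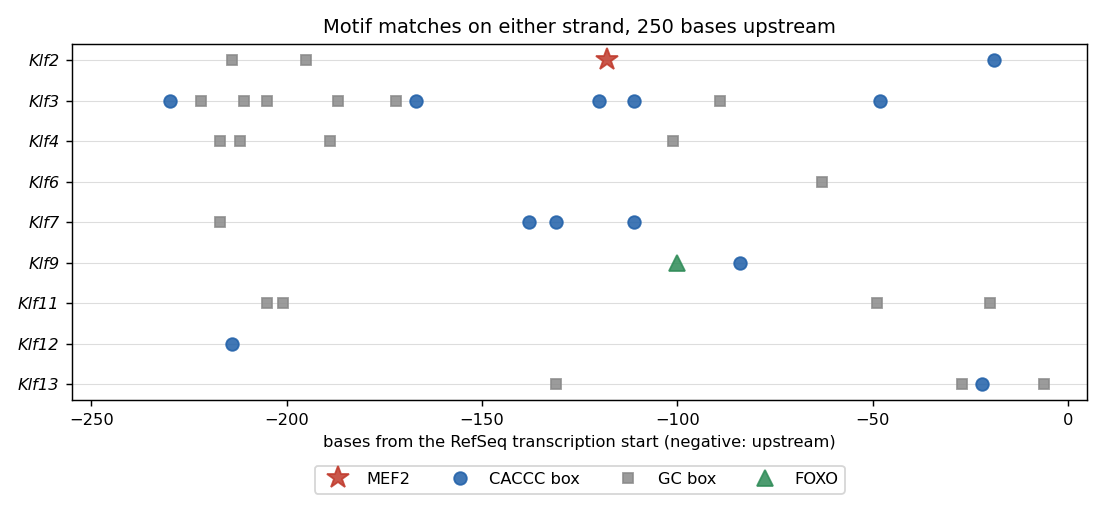
Positions of 4 motifs in the 250 bases before the RefSeq transcription start of 9 members, with the distance from the start in bases on the horizontal axis and 1 row per gene. The MEF2 match of Klf2 stands 118 bases and the FOXO match of Klf9 100 bases before the start, and GC boxes (7 of 9 genes) and CACCC boxes (6 of 9) are spread over the rows; Klf10 had no sequence in the table used.

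Gene levels were deposited as TPM, the share of each transcript in a fixed total after correction for its length, so levels of different genes can be compared. Each library held 13738 to 14434 genes with a TPM above 0, and libraries of the same clone had Pearson correlations of log2(TPM + 1) between 0.992 and 0.997 across genes. TPM keeps no read depth, so no counting error can be given. Differences between clones are given as log2 fold changes of TPM + 1 from limma, fitted to the 11330 genes with a maximum TPM above 1, and a gene is said to be higher or lower where its Benjamini-Hochberg adjusted p was under 0.01. This scale understates the change of genes with a low TPM. On it the genes tested had a median of 0.17 for R7-II against R7-I, of 0.12 for R7-II against R7-III, and of 0.04 between R7-III and R7-I. Fold changes and calls are given without subtracting these medians and should be read beside them.

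Of the 10 members, 9 passed the filter, Klf4 and Klf11 only through R7-II libraries. In the comparison with R7-I, 5 of the 9 were higher in R7-II (Klf2, Klf3, Klf7, Klf11 and Klf13), none was lower and 4 did not pass the test. Over all genes tested 56.1% passed in this comparison, 40.6% as higher and 15.5% as lower in R7-II. This split depended on scale, since median-of-ratios factors turned 4604 higher and 1754 lower genes into 2860 and 3334, and 4038 and 2039 into 2836 and 3199 in the comparison with R7-III. Between R7-II and R7-III 4 members were higher in R7-II (Klf2, Klf3, Klf7 and Klf13), none was lower and 5 did not pass, against 35.6% higher and 18% lower over all genes (53.6% in either direction). The same 4 members were higher in both comparisons, as were 31.9% of all genes tested. Both comparisons use the R7-II libraries, so they are not independent of each other. Between R7-III and R7-I 1 member passed, Klf3, which was lower in R7-III, against 8.41% of all genes in either direction (6.96% higher and 1.45% lower). Here too the split moved with median-of-ratios factors, from 789 higher and 164 lower genes to 551 and 422. The median log2 fold change of the 9 members was 0.60 in the first, 0.36 in the second and 0.03 in the third of these comparisons. With a filter on a mean TPM of at least 1, which removed Klf4 and Klf11, 7 members remained. Of the 7, 4 were higher and 1 lower (Klf6) against R7-I, and 4 higher and none lower against R7-III (medians 0.60 and 0.74). Of all 10626 genes then tested, 4400 were higher and 1748 lower against R7-I, and 3852 and 1995 against R7-III.

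**Figure D2:**
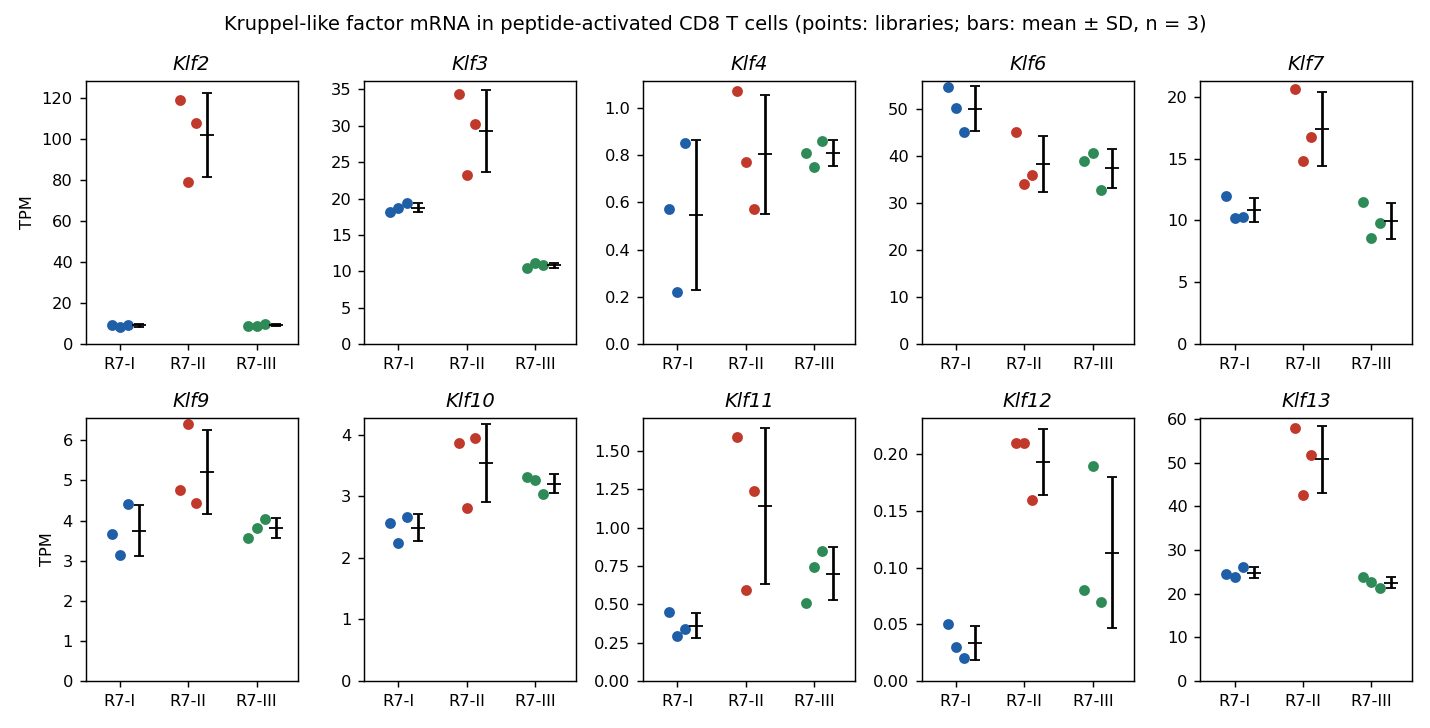
TPM of each member (vertical axes, each from 0 and with its own scale) in the 3 clones, with 1 point per library and bars for the mean ± SD (n = 3). Klf2 stands at 79.33 to 119.08 TPM in R7-II and at 8.40 to 10.00 in the other 6 libraries, Klf3 falls into 3 separate levels, and Klf6 is the member with its highest mean in R7-I.

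Klf2 (chr8:72319062-72321654) showed the largest difference of the 9 members tested. Its TPM was 9.52, 8.40 and 9.51 in R7-I, 9.06, 9.01 and 10.00 in R7-III, and 119.08, 79.33 and 108.15 in R7-II. Every R7-II library thus lay far above the other 6, which overlapped with each other. The mean was 102 ± 20.5 (SD, n = 3) in R7-II, 11.2 times the 9.14 ± 0.644 of R7-I and 10.9 times the 9.36 ± 0.558 of R7-III. The log2 fold change was 3.33 (SE 0.123, adjusted p = 2.16e-08 from limma) against R7-I and 3.30 (adjusted p = 4.34e-08) against R7-III, the rank of 7 and of 9 from the top among 11330 genes. Between R7-III and R7-I Klf2 did not pass, with a log2 fold change of 0.03 and a 95% interval from -0.24 to 0.30. In bulk RNA of this kind, fewer cells that carry a transcript and less of it per cell cannot be told apart. The study itself singled out Klf2 from these libraries, so the size of its change here is a description of them and not an independent test. By the study's account, Klf2 was among the genes whose quantitative PCR values, from a separate activation experiment, followed the RNA sequencing.

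The sorted cells also differed in markers of other cell types. Of the 8 B cell markers summed (Ms4a1, Cd79a, Cd79b, Pax5, Cd22, Blk, Cr2 and Fcer2a) all were higher in each R7-II library than in the other 6, and their summed TPM was 31.9 to 66.8 in R7-II, 7.32 to 13.8 in R7-I and 4.49 to 7.23 in R7-III. MHC class II genes summed to 112 to 183 TPM in R7-II, 32.4 to 50.3 in R7-I and 24.3 to 28.1 in R7-III, and 6 of 7 lay above the other 6 libraries in every R7-II library. Myeloid markers summed to 27.7 to 82.9 TPM in R7-II, 11.3 to 16.8 in R7-I and 15.62 to 16.04 in R7-III (7 of 9 so placed). CD8 T cell markers were far higher than all of these, at 2064 to 2113 TPM in R7-II, 1369 to 1411 in R7-I and 1580 to 1597 in R7-III, with 5 of 5 above the other 6 in R7-II. CD4 T cell markers summed to 4.03 to 5.81 TPM in R7-II, 3.36 to 4.11 in R7-I and 5.62 to 8.01 in R7-III. Of these 4 markers 2, Cd4 and Foxp3, lay above the other 6 libraries in every R7-II library. NK cell markers summed to at most 0.17 TPM and platelet markers to at most 2.91. Erythroid markers summed to 1.09 to 25.5 TPM and were lowest in R7-II. The labels state a purity of the sorted cells between 90 and 95%. Several Kruppel-like factors, Klf2 and Klf4 among them, are also expressed by B or myeloid cells, and the part of such cells in the differences of R7-II was not tested.

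Klf13 (chr7:63886351-63938915), the activator of Ccl5, had the next largest change against R7-I. It was at 24.47, 23.80 and 26.20 TPM in R7-I, at 57.98, 42.64 and 51.70 in R7-II and at 23.76, 22.58 and 21.32 in R7-III, so that R7-II did not overlap with the other clones. The log2 fold change was 0.99 (SE 0.0937, adjusted p = 6.14e-06 from limma) against R7-I and 1.13 (adjusted p = 2.59e-06) against R7-III, or 2.05 and 2.25 times in mean TPM. Between R7-III and R7-I it was -0.13 (95% interval -0.34 to 0.07). Klf2 and Klf13 kept their calls in R7-II under every alternative tried. Ccl5 itself had a different order of clones, with a TPM of 4.39, 4.65 and 4.62 in R7-I, 2.91, 5.79 and 7.44 in R7-II and 12.17, 10.41 and 9.99 in R7-III. Ccl5 did not pass between R7-II and R7-I (log2 fold change 0.13, adjusted p = 0.614) and was lower in R7-II than in R7-III (-0.96, adjusted p = 0.00280). Both depended on 1 library: without R7-II replicate 1 Ccl5 passed as higher than in R7-I (0.45, adjusted p = 0.00587), and without R7-III replicate 1 it no longer passed against R7-III (-0.88, adjusted p = 0.0130).

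Klf3 (chr5:64803521-64832901), the CtBP-dependent repressor, was the 1 member of the 9 tested that passed in all 3 comparisons. It was at 34.39, 23.27 and 30.24 TPM in R7-II, at 18.09, 18.73 and 19.34 in R7-I and at 10.41, 11.19 and 10.84 in R7-III. Every R7-II library lay above every R7-I library and every R7-I library above every R7-III library, an order that 3.82% of the genes tested had. Klf13 had the same order, but there R7-I (lowest library 23.80 TPM) and R7-III (highest 23.76) nearly touched. In R7-II the log2 fold change was 0.60 (SE 0.111, adjusted p = 6.51e-04 from limma) against R7-I and 1.34 (adjusted p = 2.43e-06) against R7-III, and in R7-III it was -0.74 (adjusted p = 0.00138) against R7-I. Klf3 shares 404 of its 11243 exonic bases with the antisense gene Gm20033, and the reads were not strand-specific, so reads of these bases cannot be assigned to 1 of the genes.

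Klf7 (chr1:64029448-64122345), a broadly expressed member of the same group of activators as Klf6, was at 11.94, 10.24 and 10.26 TPM in R7-I, 20.66, 14.80 and 16.72 in R7-II and 11.51, 8.56 and 9.79 in R7-III. R7-II did not overlap with the others, which overlapped with each other. The log2 fold change was 0.63 (SE 0.125, adjusted p = 0.00113 from limma) against R7-I, 0.74 (adjusted p = 3.94e-04) against R7-III, and -0.11 (adjusted p = 0.579) between R7-III and R7-I. With quantile normalization, which forces the same distribution on all libraries, neither Klf3 (0.36, adjusted p = 0.0106) nor Klf7 (0.35, adjusted p = 0.0258) passed between R7-II and R7-I, and both kept their direction. Klf7 shares 3196 of 8131 exonic bases with Gm26649 and 4 with Gm13748 on the other strand, so its level is uncertain.

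Klf6 (chr13:5861489-5870393), an early response gene and growth suppressor in many cell types, was the most abundant member in R7-I and R7-III and the only member tested with a negative log2 fold change against R7-I in R7-II. It was at 54.80, 50.42 and 45.22 TPM in R7-I, 45.10, 34.09 and 36.02 in R7-II and 38.95, 40.74 and 32.78 in R7-III. All R7-I libraries lay above all libraries of the other clones, with 45.22 TPM in the lowest R7-I library and 45.10 in the highest of the others. The log2 fold change of -0.38 for R7-II against R7-I (SE 0.111, adjusted p = 0.0104 from limma) and that of -0.41 for R7-III against R7-I (adjusted p = 0.0270) did not pass. Scaling the libraries by median-of-ratios factors, which brings the median of all genes close to 0, brought the first to -0.57 (adjusted p = 0.00117), which passed. For R7-II set against R7-III the value was 0.03 (95% interval -0.22 to 0.28).

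**Figure D3:**
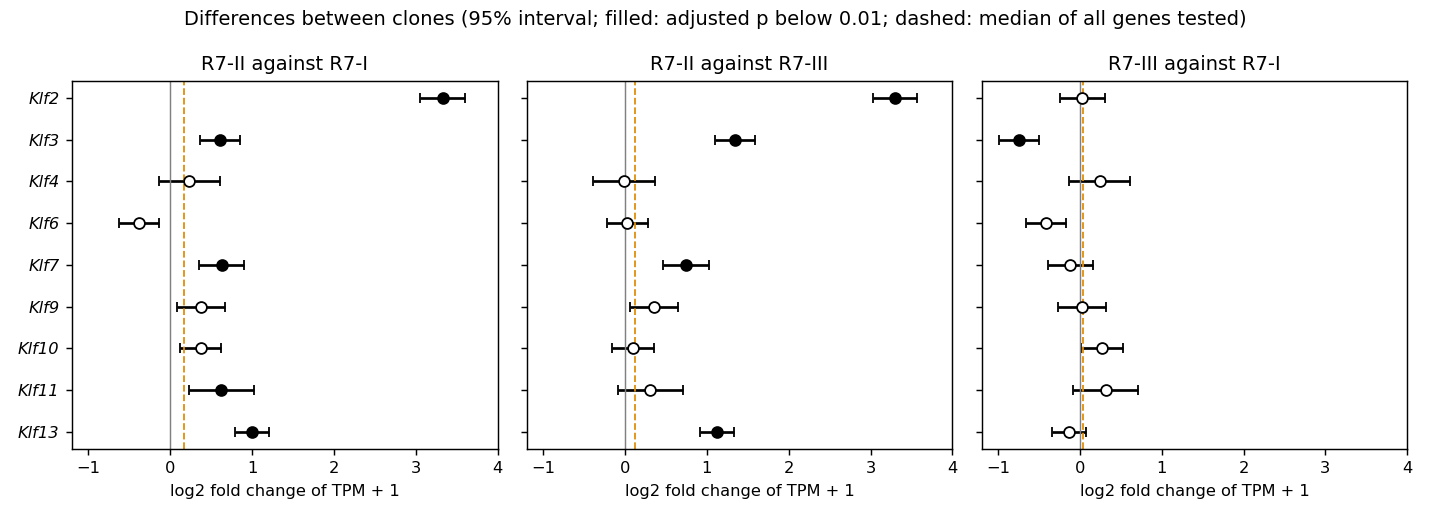
Log2 fold changes of TPM + 1 (horizontal axis) of the 9 members tested in the 3 comparisons, with 95% intervals; filled points passed an adjusted p of 0.01 and dashed lines mark the median of all genes tested (0.17, 0.12 and 0.04). Klf2 stands at 3.33 and 3.30 in the comparisons of R7-II and at 0.03 between R7-III and R7-I, where Klf3 (-0.74) is the filled point.

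The remaining 5 members were at a low level. Klf9 (chr19:23141226-23168129), which glucocorticoids induce in many tissues, was at 3.15 to 4.42 TPM in R7-I, 4.44 to 6.40 in R7-II and 3.56 to 4.05 in R7-III. Its R7-II libraries all lay above the others, but the log2 fold changes of 0.38 and 0.36 did not pass (adjusted p = 0.0247 and 0.0344 from limma). Including Klf9, R7-II stood above the other 6 libraries in 5 of 9 members, against 41.7% of all genes tested. Klf10 (chr15:38291464-38300711) was at 2.24 to 2.66 TPM in R7-I, 2.80 to 3.95 in R7-II and 3.03 to 3.31 in R7-III, with log2 fold changes of R7-II of 0.37 (adjusted p = 0.0146) and 0.10 (adjusted p = 0.457). Without R7-II replicate 2 Klf10 passed against R7-I (0.49, adjusted p = 0.00119).

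Klf11 (chr12:24651371-24662782), the closest relative of Klf10 here, was at 0.45, 0.29 and 0.34 TPM in R7-I, 1.59, 0.59 and 1.24 in R7-II and 0.51, 0.74 and 0.85 in R7-III. It passed the filter only through R7-II, so that its presence among the genes tested depends on the clone where it is high. Its log2 fold change of 0.63 against R7-I passed narrowly (adjusted p = 0.00961 from limma) and no longer passed under 14 alternatives, with adjusted p values up to 0.146. Against R7-III it was 0.31 (adjusted p = 0.150).

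Klf4 (chr4:55527137-55532475), which restrains proliferation in naive CD8 T cells and is best known as a reprogramming factor, was at 0.22 to 1.07 TPM in all libraries and passed the filter only through R7-II replicate 1. Its log2 fold changes of 0.23 and -0.01 in R7-II did not pass (adjusted p = 0.240 and 0.957). Klf12 (chr14:99866181-100285891), a repressor, was at 0.02 to 0.05 TPM in R7-I, 0.16 to 0.21 in R7-II and 0.07 to 0.19 in R7-III and was removed by the filter. In a fit without the filter its log2 fold change against R7-I was 0.21 (adjusted p = 0.00359 from limma), at levels where TPM is close to its last printed digit.

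The SD was largest in R7-II for 8 of 10 members, all but Klf4 and Klf12. R7-II replicate 2 had the lowest TPM of that clone for 7 of 10 members (Klf2, Klf3, Klf6, Klf7, Klf10, Klf11 and Klf13). Among the genes that passed as higher in both comparisons of R7-II, 69.3% were lowest in this library too. The same library also had the lowest sums of B cell markers (31.9 TPM, against 66.8 and 50.2), MHC class II genes and myeloid markers among the R7-II libraries. Without it the log2 fold change of Klf2 rose to 3.50 against R7-I, and without R7-II replicate 1 it was 3.21.

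Klf2 was then set against each paralog within the same library, as the difference of log2(TPM + 1), which nearly removes a scale factor common to both genes. In R7-I and R7-III Klf2 lay 2.11 below Klf6, 1.27 below Klf13, 0.58 below Klf3 and 0.15 below Klf7 on average. These averages pool clones that differed for Klf3, with -1.07 to -0.86 in R7-I and -0.28 to -0.11 in R7-III. Against Klf7 the R7-III values were -0.31, 0.07 and 0.03. The SE values given here include such differences between the clones. In R7-II it lay above all 9 paralogs, by 0.99 above Klf13, 1.38 above Klf6, 1.76 above Klf3 and 2.48 above Klf7. The difference between R7-II and the other 6 libraries was 2.25 (SE 0.0765) against Klf13, 2.34 (SE 0.177) against Klf3, 2.63 (SE 0.106) against Klf7 and 3.49 (SE 0.163) against Klf6. Against the 5 members of low level it was 2.94 for Klf9, 3.08 for Klf10, 2.85 for Klf11, 3.16 for Klf12 and 3.20 for Klf4, where the added 1 sets part of the value. In all 9 comparisons every R7-II library lay above the other 6, and the two-sided exact permutation test gave p = 0.0238, the smallest that 3 against 6 libraries allow. All 9 reuse the same Klf2 values, which alone differed by 3.31, and p was not adjusted for their number. Klf2 had been singled out from these libraries, so the separation was largely set in advance and p adds no independent evidence. Without any 1 R7-II library the sets still did not overlap, and the smallest possible p is then 0.0714. In these libraries Klf2 changed more than Klf13, Klf3 and Klf7, although these were higher in R7-II too.

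**Figure D4:**
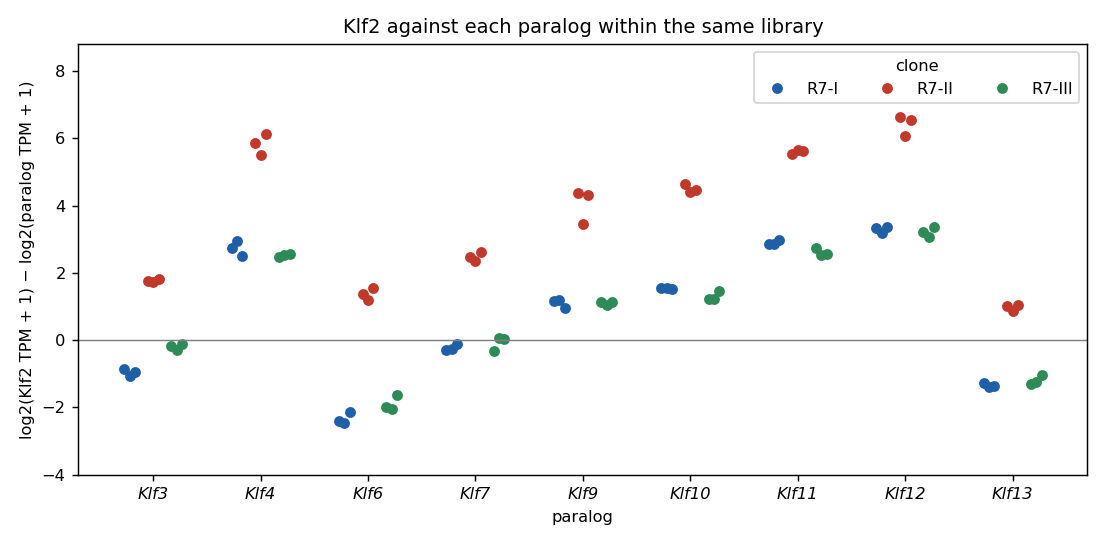
Log2(TPM + 1) of Klf2 minus that of each paralog (vertical axis) in every library, coloured by clone. The R7-II points lie above the other 6 for all 9 paralogs, and above 0 throughout, whereas Klf2 lies below Klf3, Klf6 and Klf13 in every library of R7-I and R7-III.

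The order of levels in TPM changed accordingly. In R7-I and R7-III the order was Klf6, Klf13, Klf3, Klf7, Klf2, Klf9, Klf10, Klf4, Klf11 and Klf12. Klf2 held place 5 there and place 1 in R7-II, where the order went on with Klf13, Klf6, Klf3, Klf7, Klf9, Klf10, Klf11, Klf4 and Klf12. Neighbours whose libraries overlapped were Klf4 and Klf11 in R7-I, Klf13 and Klf6, Klf6 and Klf3, and Klf11 and Klf4 in R7-II, and Klf3 and Klf7, Klf7 and Klf2, and Klf4 and Klf11 in R7-III. Klf2 took 7.57 ± 0.428% of the summed TPM of the 10 members in R7-I, 9.50 ± 1.03% in R7-III and 40.9 ± 2.02% in R7-II (SD, n = 3). The sum itself was 121 ± 4.64 TPM in R7-I, 98.8 ± 4.55 in R7-III and 249 ± 42.1 in R7-II. Without Klf2 it was 112 ± 4.27, 89.4 ± 5.10 and 147 ± 22.1 TPM, so the other 9 members together were also most abundant in R7-II.

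**Figure D5:**
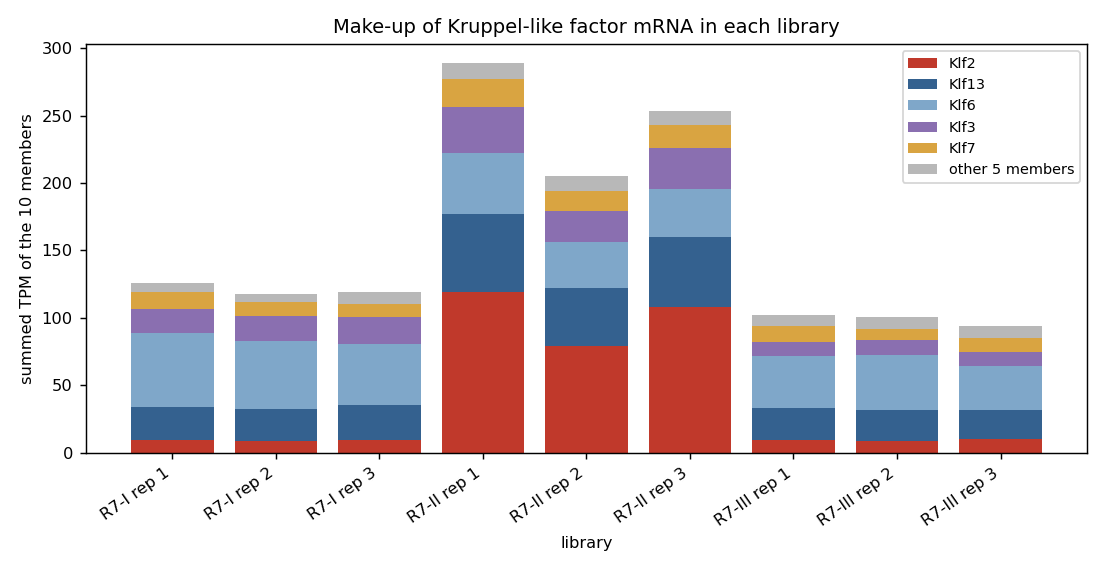
Summed TPM of the 10 members (vertical axis) in each library, stacked by gene, with Klf4, Klf9, Klf10, Klf11 and Klf12 joined as the other 5 members. R7-II libraries reach 204.9 to 288.7 TPM, of which Klf2 takes 38.7 to 42.7%, and the other 6 libraries reach 93.6 to 126.1 TPM with Klf2 at 7.15 to 10.7%.

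Family members outside the 10 were counted as a list with the related Sp factors, which bind GC boxes as well (Klf1, Klf5, Klf8, Klf14, Klf15, Klf16, Klf17, Sp1, Sp2, Sp3 and Sp4). Of the 6 that passed the filter, 4 were higher and 1 lower in R7-II in each comparison, with medians of 0.48 against R7-I and 0.41 against R7-III. Over all genes 40.6% were higher and 15.5% lower in the first comparison, and 35.6% and 18% in the second, and with so few genes nothing particular to the list is read from its counts. Sp3 rose most, from 46.8 ± 3.30 TPM in R7-I and 45.6 ± 1.51 in R7-III to 79.2 ± 6.90 in R7-II (log2 fold changes 0.75 and 0.78). Sp4 (0.69 and 0.63) and Sp1 (0.43 and 0.42) were higher as well. Klf16, a repressor, was the lower gene, at 57.98, 56.41 and 58.74 TPM in R7-I, 46.63, 42.90 and 46.04 in R7-II and 56.62, 52.40 and 55.83 in R7-III (log2 fold changes -0.35 and -0.28, adjusted p = 5.66e-05 and 2.95e-04 from limma). Klf16 kept this call under the other scalings. Sp2 passed only against R7-III (0.39) and Klf8 only against R7-I (0.54), and the call of Klf8 was lost under both other scalings and without R7-I replicate 1 or 3 or R7-II replicate 1 (adjusted p = 0.0179 to 0.0230), as well as in a fit of only the clones compared (adjusted p = 0.0103). Klf14 and Klf15 were listed at 0 in every library.

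Genes of T cell trafficking that are linked to Klf2 were counted next, and 6 of them had been picked by the study from these libraries, so their direction is not independent evidence. Of 10 tested (S1pr1, S1pr4, Itgb7, Itga4, Cxcr4, Il7r, Il6ra, Ccr7, Cxcr3 and Ccl5), 8 were higher and 1 lower in R7-II when compared with R7-I, and 8 were higher and 2 lower than in R7-III. The medians were 1.36 and 1.51, against 0.17 and 0.12 for all genes, of which 40.6% and 35.6% were higher. Median-of-ratios scaling kept the list counts. Quantile normalization gave 7 higher and 1 lower against R7-I, and 7 and 2 against R7-III. There Il7r lost its call against R7-I (adjusted p = 0.0189 from limma) and Il6ra against R7-III (0.0111). Il7r also lost it without R7-I replicate 3 (0.0124) or R7-II replicate 1 (0.0104). S1pr1, the receptor through which T cells follow sphingosine-1-phosphate out of lymphoid organs and a direct target of Klf2, was at 1.71, 1.51 and 2.38 TPM in R7-I, 47.58, 25.30 and 42.61 in R7-II and 1.09, 1.58 and 1.66 in R7-III (log2 fold changes 3.75 and 3.97). Itgb7, the beta 7 chain of gut-homing integrins, was at 12.48 to 13.96 TPM in R7-I, 88.26 to 110.12 in R7-II and 17.29 to 19.59 in R7-III (2.85 and 2.42), and its partner chain Itga4 rose by 1.63 and 2.03. The chemokine receptor gene Cxcr4 went from 1.14 ± 0.329 TPM in R7-I and 0.767 ± 0.169 in R7-III to 6.60 ± 2.09 in R7-II (1.80 and 2.07).

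In the opposite direction, Cxcr3, a receptor of inflammatory homing that Klf2 is reported to hold down, is named after its values were seen, as the 1 gene lower in both comparisons. It was at 7.86, 7.24 and 8.29 TPM in R7-I, 3.71, 2.48 and 2.58 in R7-II and 8.05, 8.93 and 8.72 in R7-III (log2 fold changes -1.18 and -1.30, adjusted p = 7.40e-06 and 3.89e-06 from limma). By the study's account, Cxcr3 was the gene whose quantitative PCR values, from a separate activation experiment, did not correlate with the RNA sequencing. Of this list Itgb7 (0.43) and Ccl5 (1.09) were also higher in R7-III than in R7-I, while Klf2 did not pass there. Neither call held with quantile normalization or without any 1 of the R7-I or R7-III libraries (adjusted p = 0.0128 to 0.0305). S1pr1, Itgb7, Cxcr4 and Ccr7 are expressed by B cells as well, whose markers were higher in R7-II as given above, and the part of these cells was not tested.

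The 14 listed regulators of Klf2 in T cells, among them its activators Foxo1, Foxo3, Elf4 and the MEF2 factors, the kinases Map2k5 and Mapk7 that act on MEF2, the AKT kinases that keep FOXO factors out of the nucleus, and ubiquitin ligases that act on the protein, all passed the filter, Mef2c only through R7-II replicate 3 (1.02 TPM). In R7-II 9 were higher and 1 lower than in R7-I (median 0.31), and 10 were higher and 1 lower than in R7-III (median 0.31), while 40.6% and 35.6% of all genes were higher. Mef2c is among the higher genes of both counts and was not tested without that library. Median-of-ratios scaling gave 7 higher and 2 lower in each comparison, and quantile normalization 6 higher and 3 lower against R7-I and 7 and 2 against R7-III. Smurf1, a ubiquitin ligase that promotes decay of Klf2 protein, went from 10.11, 10.28 and 9.97 TPM in R7-I and 9.49, 9.56 and 10.03 in R7-III to 22.17, 17.60 and 20.65 in R7-II (log2 fold changes 0.92 and 0.98). Foxo1 was at 29.26 to 33.08 TPM in R7-I, 49.73 to 60.17 in R7-II and 29.82 to 31.27 in R7-III (0.81 and 0.82). Elf4 (0.71 and 0.72) and Foxo3 (0.71 and 0.55) were higher too. Akt1, named after its values were seen as the 1 lower gene, was at 117.22 to 119.20 TPM in R7-I, 100.70 to 108.92 in R7-II and 127.61 to 132.46 in R7-III (-0.18 and -0.32). Mapk7 (0.02 and 0.11) and Fbxw7 (-0.09 and -0.09) did not pass, although Fbxw7 passed as lower under both other scalings. None of the 14 passed between R7-III and R7-I.

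Of 7 corepressors tested that bind Kruppel-like factors (Ctbp1, Ctbp2, Sin3a, Sin3b, Hdac1, Hdac2 and Hdac3), R7-II had 3 higher and 1 lower than R7-I, and 2 higher and none lower than R7-III, with medians of 0.08 and 0.04 beside 0.17 and 0.12 for all genes. The 4 of 7 past the threshold against R7-I and 2 of 7 against R7-III stand beside 56.1% and 53.6% of all genes. Hdac1 (0.33, adjusted p = 4.38e-05 from limma) and Hdac2 (-0.19, adjusted p = 0.00195), histone deacetylases named after their values were seen, went opposite ways against R7-I and did not pass against R7-III. Ctbp1, the partner of Klf3, was at 196 ± 2.51 TPM in R7-I, 219 ± 3.28 in R7-II and 197 ± 4.22 in R7-III (log2 fold changes 0.16 and 0.15), and Sin3a had values of 0.22 and 0.21. Both lost their calls with median-of-ratios scaling, where Ctbp1 turned to -0.03 against R7-I and R7-II had 1 corepressor higher and 3 lower than R7-I, and none higher and 2 lower than R7-III. Sin3b (-0.04 and 0.04) and Hdac3 (0.08 and -0.03) did not pass. With median-of-ratios scaling, however, Sin3b passed as lower against R7-I (-0.23, adjusted p = 0.00500 from limma). Hdac3 then passed as lower against R7-I (-0.11) and R7-III (-0.16), and Hdac2 as lower against R7-III (-0.24). With quantile normalization Hdac1 passed as higher against R7-III (0.16).

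Of 10 genes of early TGF-beta signalling, the pathway that induces Klf10 and Klf11, R7-II had 7 higher than R7-I and 8 higher than R7-III, with none lower and medians of 0.45 and 0.53, while 40.6% and 35.6% of all genes were higher. With median-of-ratios scaling 5 and 7 remained past the threshold as higher. With quantile normalization 4 were higher and 1 lower against R7-I (median 0.13) and 7 higher against R7-III. Smad7, the inhibitory SMAD and itself a target of the pathway, was at 6.35, 6.36 and 7.33 TPM in R7-I, 15.32, 11.72 and 16.52 in R7-II and 5.66, 6.11 and 6.66 in R7-III (log2 fold changes 1.00 and 1.11). The corepressor Ski (0.78 and 0.71), the receptor gene Tgfbr2 (0.54 and 0.62) and Smad4 (0.52 and 0.56), the shared partner of receptor-activated SMADs, were higher as well. Smad2 did not pass (0.06 and 0.08), but with quantile normalization it passed as lower against R7-I (-0.20, adjusted p = 0.00449). Of the members linked to this pathway, Klf11 passed only against R7-I and Klf10 in neither comparison.

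The genes whose pattern was most like that of the 4 members higher in both comparisons were taken by Pearson's r of log2(TPM + 1) over the 9 libraries, among 8264 genes with a maximum TPM of at least 10. All of these genes share their libraries and the separation of R7-II from the rest, and the values are given as a description. For Klf2 they were Rnf167 (r = 0.999), Hbp1 (0.998) and Sun2 (0.998), and Sun2 was at a mean of 19.3 TPM in R7-I, 77.3 in R7-II and 19.8 in R7-III. For Klf13 they were Setd1b (0.999), Dyrk2 (0.997) and Kdsr (0.996). For Klf7 they were Tank (0.989), Ikzf5 (0.983) and R3hcc1l (0.980). For Klf3, with its separate levels in the 3 clones, they were Ppm1h (0.995), Tmf1 (0.990) and Tmem87b (0.987), and Ppm1h was at 10.8 TPM in R7-I, 15.1 in R7-II and 7.58 in R7-III.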

How the data were processed

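Polyadenylated RNA of sorted, peptide-activated CD8 T cells was sequenced by the study as single-end reads that are not strand-specific. Per the paper's methods and the submitters' processing notes (RSEM 1.2.11, DESeq2 1.8.1, mm10), the authors used RSEM for alignment to RefSeq genes and for gene-level estimates, and they deposited TPM values rounded to 2 decimals. Which aligner RSEM called was not stated in any source read. Counts were not used here, so the count test of the study was replaced and the depth per library is unknown.

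From the deposited TPM values, log2(TPM + 1) was computed for 11330 genes with a maximum TPM above 1 and fitted with limma 3.58.1 in R 4.3.3 (mean-variance trend, all 9 libraries in 1 fit, Benjamini-Hochberg adjustment over all genes, threshold 0.01). The fit was tested on simulated data. Klf2 was set against its paralogs by exact two-sided permutation tests in scipy 1.17.1 (Python 3.11.15). These p-values measure only the spread between the libraries, which may be technical. Library columns were matched to samples by name.

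The members and gene lists were chosen with earlier results of these data known. All members were described. Of each list, the 4 largest changes against R7-I among genes past the threshold in both comparisons of R7-II were named, with up to 2 that did not pass, and other genes only as stated, and the 3 genes most like each member higher in both. Alternatives were other pseudocounts (0.1 and 5), filters, scalings, moderation and threshold (0.05), fits of only the clones compared, a replicate block, and leaving out each library. Same-numbered libraries did not deviate together.

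Coordinates and promoters are from RefSeq, GRCm38.p6, and exon overlaps from the GENCODE annotation of the same build. Some items are not reported here.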

Additional observations from a re-analysis of the deposited data

How the results depend on the processing

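The paper gives a typical number of reads per sample but not the depth of each library. Members under about 1 TPM (Klf4, Klf11 and Klf12) therefore carry a counting error that cannot be given. Klf2 and Klf13 kept direction and call against both clones under every alternative, Klf3 and Klf7 under all but quantile normalization against R7-I, and the Klf2 share of the summed TPM moved by less than its SD. Against R7-I, 5 members passed, 3 with quantile normalization (Klf2, Klf13 and the lower Klf6) and 8 at an adjusted p of 0.05. Between R7-III and R7-I 1 member passed (Klf3), and 2 (Klf3 and Klf6) with the replicate block or at an adjusted p of 0.05. With libraries left out in turn, the numbers passing were 4 to 6 for R7-II against R7-I, 4 in each case for R7-II against R7-III, and 1 to 2 for the remaining pair of clones, the 2 being reached when R7-II replicate 1 was left out.

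Among the members, signs turned only for values that had not passed. Of list genes that had passed against R7-I, Ctbp1 turned from 0.16 to -0.0317 with median-of-ratios scaling and Pmepa1 from 0.27 to -0.0119 with quantile normalization, and neither then passed. With median-of-ratios scaling Klf6 (-0.101) and Klf10 (-0.00343) turned negative for R7-II against R7-III, and Klf2 (-0.0181) and Klf9 (-0.0161) for R7-III against R7-I. With quantile normalization Klf4 turned to -0.0854 in the comparison of R7-II with R7-I, Klf6 to -0.113 and Klf10 to -0.0868 in that with R7-III, and Klf2 to -0.0840 and Klf9 to -0.149 between R7-III and R7-I. With libraries left out in turn, Klf4 lay between -0.0343 and 0.0838 and Klf6 between -0.0889 and 0.108 for R7-II against R7-III, and Klf2 between -0.0233 and 0.0579 and Klf9 between -0.0661 and 0.127 between the remaining clones. The cause was not tested. Klf6 passed against R7-I under 7 alternatives, with adjusted p values from 0.00117 to 0.00998.

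Over all genes, the 953 that passed for R7-III set against R7-I became 436 to 1120 with libraries left out (436 without R7-I replicate 1, 577 with replicate 2 of that clone left out, and 496 to 530 without 1 of the R7-III libraries) and 2142 at an adjusted p of 0.05.

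Replicate numbers did not pair the libraries, since correlations of the deviations of same-numbered libraries lay between -0.04 and 0.09. With the replicate block 5 members passed against R7-I, with Klf6 in place of Klf11, and 4 against R7-III, 6015 and 5786 genes passed against R7-I and R7-III, and all Klf2 differences from paralogs had p = 0.0741, the smallest an exact permutation within numbers allows.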
